A study of Mus musculus with 22 samples.

Results

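The comparison described here asks whether stretching loose connective tissue changed gene expression in the same way inside the animal and outside it. It uses all 22 samples of the series, which were joined into 11 pairs, each holding a stretched and a shortened piece of subcutaneous tissue from 1 animal with the same setting and the same replicate number. The difference between stretched and shortened tissue was taken within each pair, and the 7 in vivo differences were then set against the 4 ex vivo differences. The groups were in vivo stretched tissue (7 samples), in vivo shortened tissue (7 samples), ex vivo stretched tissue (4 samples) and ex vivo shortened tissue (4 samples). All came from male C57BL/6 mice of 19 to 24 g, an inbred strain, and the tissue was the loose layer under the skin of the trunk. Which piece of an animal was stretched had been randomized. The labels give no genetic change, no drug, no age, and neither the force nor the time of stretching, and the medium and oxygen of the ex vivo tissue are not given in the sources used here.

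Loose connective tissue is a soft layer of collagen and elastic fibres that joins skin to muscle. It is made and maintained by fibroblasts, which respond to stretch by changing their shape and cytoskeleton, and it also holds resident macrophages, mast cells, fat cells, nerves and small vessels. A piece kept outside the body has no blood flow, so its oxygen and nutrients arrive by diffusion. Cells short of oxygen stabilise the transcription factor HIF, which raises genes for glucose uptake, glycolysis and vessel growth. Cells whose endoplasmic reticulum holds too much unfolded protein start the unfolded protein response, which raises chaperones and the machinery that removes misfolded proteins.

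Gene expression was measured on 1-colour arrays as log2 signals of 22626 probes, which stood for 12393 genes when each gene was read from its brightest probe. No depth applies to arrays, and the number of animals limits the precision. Markers of fascia fibroblasts averaged a log2 signal of 11.03 ± 0.15 in vivo stretched, 11.20 ± 0.09 in vivo shortened (SD, n = 7 each), 9.94 ± 0.17 ex vivo stretched and 9.91 ± 0.17 ex vivo shortened (SD, n = 4 each). Levels of different probes cannot be set against each other, so these values do not measure the cell types' shares. Arrays of the 2 settings followed different distributions, with sample medians of 7.29 to 7.42 in vivo, against 6.85 to 6.90 ex vivo. Levels are therefore compared within a setting only, and between settings only the stretch differences are compared. A log2 difference of 1 is a doubling of signal, a positive stretch effect means higher in stretched tissue, and a positive difference of the effects means that stretched minus shortened was higher in vivo than ex vivo. In bulk tissue, fewer cells of a type and less RNA per cell cannot be told apart.

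Stretch had a different effect in the 2 settings for a small set of genes, and in each of them the effect was larger ex vivo. With limma and Benjamini-Hochberg adjustment over all probes at a threshold of 0.05, 40 of 22626 probes (0.177%) were called for the difference. By gene, 17 of 12393 (0.137%) had a higher and 7 (0.0565%) a lower effect in vivo than ex vivo. Without adjustment, at p under 0.05, the counts were 865 (6.98%) and 1200 (9.68%), and 5874 genes (47.4%) had a positive difference of any size. Another 12 called probes were further probes of a gene and 4 had no single gene symbol, so 34 genes were called by some probe. The 24 called genes were also called ex vivo in the same fit, none of them was called in vivo, and 20 of them had effects of opposite sign in the 2 settings. The difference and the ex vivo effect share the ex vivo samples, so the second call is not a separate finding. The count rests on few animals: without in vivo animal 2 or without ex vivo animal 3 limma called 0 probes, while by gene 716 upward and 1020 downward (without in vivo animal 2) and 550 upward and 858 downward (without ex vivo animal 3) passed at an unadjusted p under 0.05. In contrast 663 probes were called without ex vivo animal 1 and 331 without ex vivo animal 4. Without any 1 of the remaining animals the count was 1 to 8.

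The gene with the smallest p was Lyve1, the hyaluronan receptor of lymphatic vessels that is also made by a subset of resident tissue macrophages. In vivo its log2 signal was 11.88 to 12.33 in stretched tissue (median 12.08) and 12.23 to 12.52 in shortened tissue (median 12.38). Ex vivo it was 4.96, 4.81, 5.32 and 6.47 in stretched tissue of animals 1 to 4, against 7.37, 7.17, 7.17 and 7.74 in their shortened tissue. The stretched pieces were lower in 7 of 7 animals in vivo and in 4 of 4 ex vivo, and the pair differences of the settings did not overlap. In vivo the pair differences lay between -0.63 and -0.06, and ex vivo they were -2.41, -2.36, -1.85 and -1.27. The stretch effect was -0.28 in vivo and -1.97 ex vivo, a difference of 1.70 ± 0.19 (SE, limma adjusted p = 0.0140). A second probe of Lyve1 was called as well, with a difference of 0.93 and adjusted p = 0.0464. Lyve1 lay at a different place on the scale of each setting, and whether this bears on the size of the difference was not tested.

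**Figure D1:**
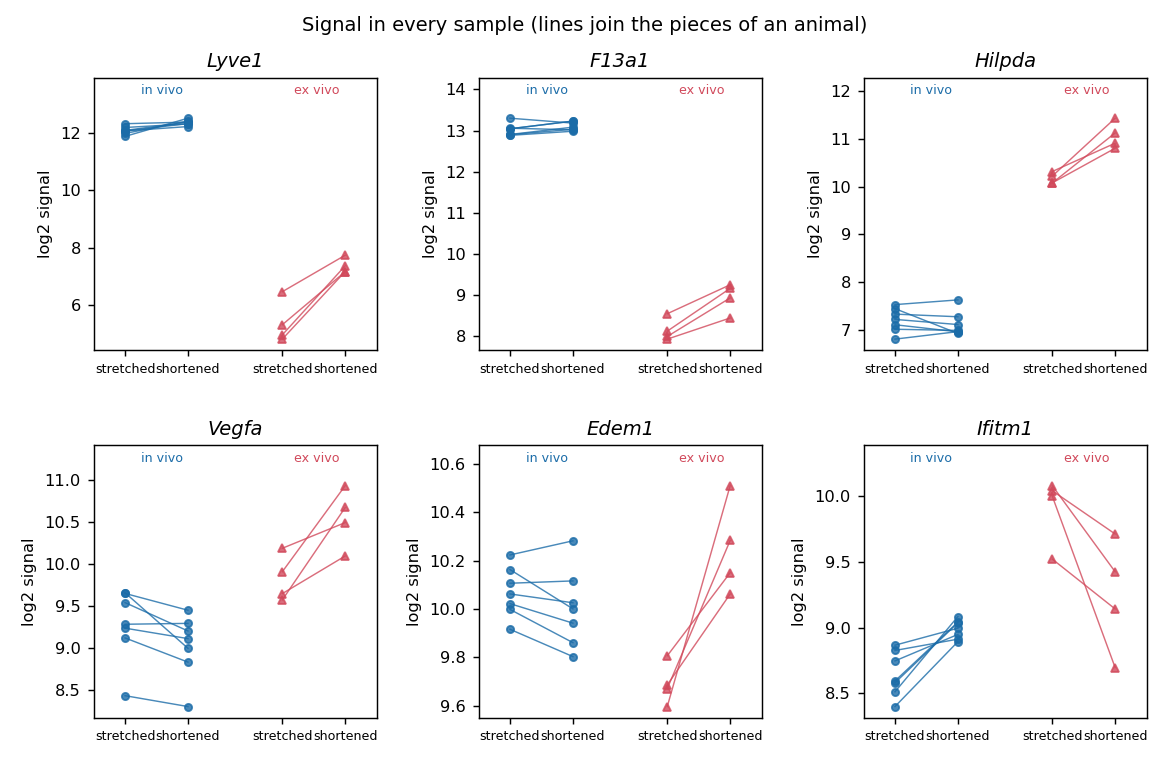
Log2 signal of 6 genes in every sample, stretched left of shortened, with 7 in vivo animals (circles) and 4 ex vivo animals (triangles); lines join the pieces of an animal. Ex vivo the stretched piece was lower in 4 of 4 animals for Lyve1, F13a1, Hilpda, Vegfa and Edem1 and higher in 4 of 4 for Ifitm1. Heights are to be read within a setting, since the settings followed different distributions.

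Other genes linked to macrophages moved with Lyve1 in part. F13a1, the A subunit of coagulation factor XIII, which tissue macrophages make, had an in vivo effect of -0.09 and an ex vivo effect of -0.80, a difference of 0.71 ± 0.10 (adjusted p = 0.0368). Its in vivo pair differences lay between -0.19 and 0.12, and the ex vivo ones, at -1.04, -0.51, -0.70 and -0.94, were all lower. Cd163, the scavenger receptor for haemoglobin with haptoglobin, had in vivo pairs of -0.47 to 0.23 with an effect of -0.16, and ex vivo pairs of -1.62, -0.68, -0.64 and -1.06. Its difference of 0.84 ± 0.18 missed the threshold (adjusted p = 0.0752). Csf1r, the receptor for the macrophage growth factor CSF1, gave 0.54 ± 0.10 (adjusted p = 0.0559), with ex vivo pairs of -0.58, -0.57, -0.36 and -1.01.

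The macrophage markers as a list did not share this pattern. Of 19 markers 5 had a positive difference, and the median difference was -0.18, against -0.01 over all genes. At an unadjusted p under 0.05, 2 markers passed upward and 2 downward, against 6.98% and 9.68% of all genes. Folr2 had ex vivo pair differences of -0.56, 1.11, 0.36 and -0.75, and the mannose receptor Mrc1 of -0.86, 0.46, 0.27 and -0.41, so animals 2 and 3 went up where Lyve1 went down. The mean difference over the list was -0.44, 0.54, 0.36 and -0.70 in ex vivo animals 1 to 4. Other lymphatic markers were too imprecise or too dim to show whether they differed. Flt4, a receptor of lymphatic endothelium, differed by 0.40 ± 0.28 (adjusted p = 0.534), and Prox1, the lymphatic transcription factor, was dim on these arrays with a mean log2 signal of 2.77 and a difference of -0.06 ± 0.10 (adjusted p = 0.827). Of 19 endothelial markers, Lyve1 among them, 15 had a positive difference and Lyve1 alone passed, also without adjustment. The part of macrophage or vessel content in the Lyve1 result was not tested.

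Genes that HIF induces differed mostly in one direction. Of 22 measured members, chosen in the knowledge of earlier results, 21 had a positive difference. At an unadjusted p under 0.05, 13 passed with a positive difference and 0 with a negative one, against a background of 6.98% and 9.68% of all genes. After adjustment 3 passed, Hilpda, Higd1a and Vegfa. For 6 members the pair differences of the settings did not overlap, where 1.15% of all genes lay above and 1.88% below without overlap. The median effect of the list was -0.07 in vivo and -0.56 ex vivo. In vivo 14 of 22 members were lower in stretched tissue, and over all genes 0 of 12393 (0%) were called by limma in the joint fit, with 2192 at an unadjusted p under 0.05. Ex vivo 21 of 22 members were lower, and 12 passed the limma threshold downward and 0 upward, against 2.07% and 1.15% of all genes. When the settings were fitted apart, limma called 0 probes in vivo (4373 at an unadjusted p under 0.05) and 0 ex vivo (2508), so the ex vivo calls rest on a spread shared with the in vivo animals.

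Hilpda encodes a small protein of lipid droplets that hypoxia induces. Its log2 signal in vivo was 6.82 to 7.54 in stretched tissue (median 7.23) and 6.93 to 7.64 in shortened tissue (median 7.00), so these groups overlapped. Ex vivo it was 10.08, 10.07, 10.22 and 10.31 in stretched tissue, against 10.80, 11.12, 11.43 and 10.91 in shortened tissue, with no overlap. The stretch effect was 0.09 in vivo and -0.89 ex vivo, a difference of 0.98 ± 0.14 (SE, limma adjusted p = 0.0455).

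Vegfa, the main growth factor for blood vessels, ran in opposite directions. In vivo its signal was 8.44 to 9.66 in stretched tissue (median 9.28) and 8.31 to 9.45 in shortened tissue (median 9.11), and the stretched piece was higher in 6 of 7 animals. Ex vivo it was 9.65, 9.57, 9.91 and 10.19 in stretched tissue, against 10.10, 10.67, 10.93 and 10.49 in shortened tissue, lower in 4 of 4 animals. Its effects of 0.25 in vivo and -0.72 ex vivo differed by 0.96 ± 0.16 (adjusted p = 0.0464). A second probe gave 1.36 (adjusted p = 0.0464). Higd1a, a small mitochondrial protein induced by hypoxia, had effects of 0.24 in vivo and -0.62 ex vivo and differed by 0.86 ± 0.14 (adjusted p = 0.0464). Its dimmer probes gave 0.75 ± 0.18 and 0.79 ± 0.17 and did not pass (adjusted p = 0.0920 and 0.0771).

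Fam162a, another mitochondrial protein that hypoxia induces, was not on the list and was called with effects of 0.13 in vivo and -0.54 ex vivo. Ero1a, the oxidase that drives disulfide bonds in the endoplasmic reticulum, was called by 1 of its probes with a difference of 1.46 (adjusted p = 0.0178). Its brightest probe gave 1.16 ± 0.22 and fell short (adjusted p = 0.0535). On that probe the in vivo pair differences stayed between -0.30 and 0.15, and the ex vivo signal was 11.76, 10.88, 11.41 and 11.44 in stretched tissue, against 12.15, 12.82, 12.83 and 12.37 in shortened tissue.

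Not every HIF gene differed. Prolyl hydroxylases of collagen split, with P4ha2 at 0.65 ± 0.17 (adjusted p = 0.107) and P4ha1 at 0.11 ± 0.10 (adjusted p = 0.643), the second lower in stretched tissue of 11 of 11 animals with effects of -0.26 in vivo and -0.37 ex vivo. The glucose transporter Slc2a1 (0.21 ± 0.21), the differentiation gene Ndrg1 (0.13 ± 0.19), the carbonic anhydrase Car9 (-0.06 ± 0.17) and the mTOR inhibitor Ddit4 (0.01 ± 0.45) had small differences against their errors. Ddit4 was far apart among the ex vivo animals, at 1.62, -1.67, -0.92 and 0.27. Egln3, the oxygen-sensing hydroxylase that HIF itself induces, had the largest difference of the list, 1.48 ± 0.37, with adjusted p = 0.102.

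Short sequences before the start of these genes are shown because the list is defined by a factor that reads DNA. The core that HIF binds is ACGTG or GCGTG, and it was searched on both strands in the 250 bases before each start in the RefSeq promoters of GRCm38.p6, which hold 17 of the 22 listed genes. All 17 hold at least 1 core, as do 12 of 13 glycolysis genes and 13 of the 20 called genes with a promoter, against 55.7% of 9887 measured genes with one. In the list of the unfolded protein response, which HIF does not define, 18 of 23 genes with a promoter hold it too. A match is a description of letters, and so short a motif is common. Capitals mark the core, or its reverse complement, in 3 called genes, each written 5′ to 3′ on the strand of the gene. Hilpda lies on the plus strand (chr6:29272376-29272625), Higd1a on the minus strand (chr9:121857797-121858046) and Fam162a on the minus strand (chr16:36071562-36071811), with 3, 2 and 6 matches.
Hilpda: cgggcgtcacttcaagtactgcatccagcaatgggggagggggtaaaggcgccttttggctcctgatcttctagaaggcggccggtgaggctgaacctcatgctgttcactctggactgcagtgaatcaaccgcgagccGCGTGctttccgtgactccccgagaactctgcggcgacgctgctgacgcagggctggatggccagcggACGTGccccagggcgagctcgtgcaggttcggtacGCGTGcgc
Higd1a: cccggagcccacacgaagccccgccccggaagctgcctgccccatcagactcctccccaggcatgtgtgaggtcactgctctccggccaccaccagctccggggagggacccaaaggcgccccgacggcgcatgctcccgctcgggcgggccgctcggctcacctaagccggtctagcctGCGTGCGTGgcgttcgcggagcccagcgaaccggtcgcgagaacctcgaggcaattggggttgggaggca
Fam162a: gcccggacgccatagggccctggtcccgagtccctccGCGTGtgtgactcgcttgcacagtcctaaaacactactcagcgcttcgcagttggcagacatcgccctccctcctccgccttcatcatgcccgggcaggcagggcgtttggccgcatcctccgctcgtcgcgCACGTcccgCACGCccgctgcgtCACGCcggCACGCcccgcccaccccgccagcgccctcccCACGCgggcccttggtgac

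Glycolysis enzymes, many of which HIF also raises, had positive differences. All 13 measured members had a positive difference, and 10 passed at an unadjusted p under 0.05 with a positive and 0 with a negative difference, against 6.98% and 9.68% of all genes, but 0 passed by limma after adjustment. Of the 13, 0 were called in vivo and 2 ex vivo, both lower in stretched tissue. The median effect was 0.27 in vivo and -0.28 ex vivo, higher in stretched tissue in vivo for 10 of 13 and lower ex vivo for 12 of 13. Pgk1, phosphoglycerate kinase, was higher in 7 of 7 in vivo pairs (0.01 to 0.62) and lower in 4 of 4 ex vivo pairs (-0.07, -0.44, -0.43 and -0.17), a difference of 0.49 ± 0.12 (adjusted p = 0.105). Lactate dehydrogenase Ldha did the same, with 0.02 to 0.84 in vivo and -0.07, -0.34, -0.33 and -0.03 ex vivo (difference 0.55 ± 0.15, adjusted p = 0.119). Phosphoglycerate mutase Pgam1 gave 0.37 ± 0.07 (adjusted p = 0.0559), and Pfkfb3, which makes the activator of phosphofructokinase, gave 0.93 ± 0.29 (adjusted p = 0.157).

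**Figure D2:**
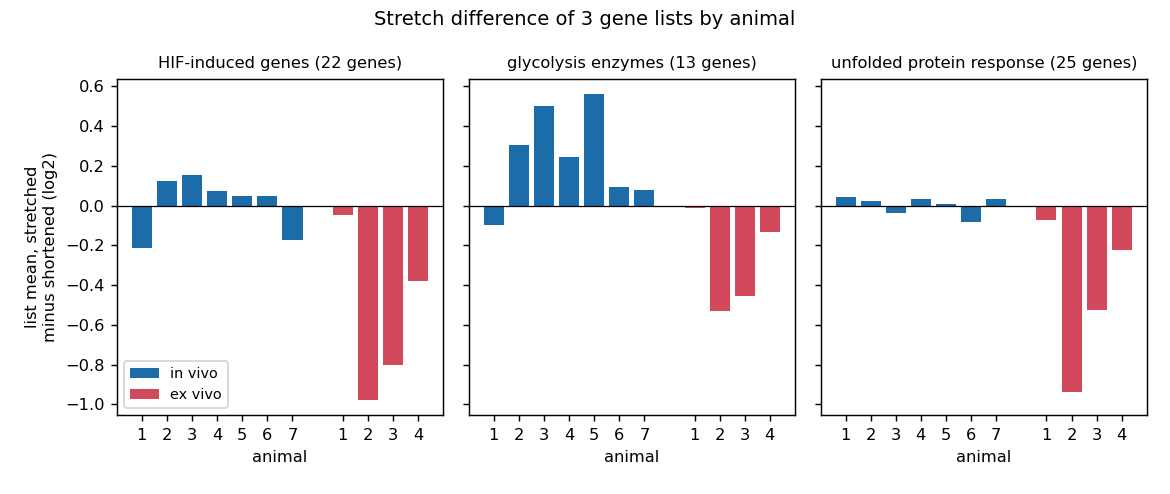
Stretched minus shortened tissue, averaged over the members of 3 gene lists, for each in vivo animal (1 to 7) and ex vivo animal (1 to 4), in log2 units. Ex vivo animals 2, 3 and 4 lie below 0 in each panel and ex vivo animal 1 lies near 0, at -0.05, -0.01 and -0.07.

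Genes of the unfolded protein response differed in the same direction. Of 25 members 24 had a positive difference, and 16 passed at an unadjusted p under 0.05 with a positive and 0 with a negative difference. After adjustment Edem1 passed. The median effect was -0.05 in vivo and -0.44 ex vivo, and 19 of 25 members were lower in stretched tissue in vivo, against 25 of 25 ex vivo, 9 of these past the limma threshold. The pair differences of 7 members did not overlap, each with in vivo above ex vivo. Over all genes 6.98% passed the unadjusted p with a positive difference, 2.07% were called lower ex vivo and 1.15% lay above without overlap.

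Edem1 helps to pull misfolded glycoproteins out of the endoplasmic reticulum. In vivo its signal was 9.92 to 10.22 in stretched tissue (median 10.06) and 9.80 to 10.28 in shortened tissue (median 10.001). Ex vivo it was 9.69, 9.60, 9.67 and 9.81 in stretched tissue, against 10.06, 10.51, 10.28 and 10.15 in shortened tissue, without overlap. The effects of 0.07 and -0.56 differed by 0.63 ± 0.10 (SE, adjusted p = 0.0464), while a second probe gave 0.30 ± 0.11 (adjusted p = 0.214). The chaperone Hspa5 differed by 0.42 ± 0.08 (adjusted p = 0.0677), with in vivo pairs between -0.14 and 0.08 and ex vivo pairs of -0.20, -0.69, -0.58 and -0.31. Manf, a secreted stress factor, gave 0.48 ± 0.11 (adjusted p = 0.0809) and Herpud1, a membrane protein of the degradation pathway, 0.87 ± 0.24 (adjusted p = 0.124). Derl1, a channel component of the same pathway that was not on the list, was called by 1 probe with a difference of 0.87 (adjusted p = 0.0493). Members without a difference included calreticulin, Calr (0.03 ± 0.07), calnexin, Canx (0.09 ± 0.09), and the factors Atf4 (0.15 ± 0.14) and Xbp1 (0.08 ± 0.06). Atf4 is known to be controlled mainly at translation and Xbp1 by splicing.

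The element read by the factors of this response is CCAAT and CCACG with 9 bases between them, and it stood on either strand in the promoters of 8 of 23 listed genes, against 0.172% of all measured genes with a promoter. None of the 20 called genes with a promoter held it in this window, Edem1 included. Where a C or T follows CCACG it overlaps the reverse of the HIF core. Hspa5 (plus strand, chr2:34771840-34772089), Creld2 (plus strand, chr15:88819396-88819645) and Hsp90b1 (minus strand, chr10:86705445-86705694) are shown with the element in capitals, 1, 1 and 2 times.
Hspa5: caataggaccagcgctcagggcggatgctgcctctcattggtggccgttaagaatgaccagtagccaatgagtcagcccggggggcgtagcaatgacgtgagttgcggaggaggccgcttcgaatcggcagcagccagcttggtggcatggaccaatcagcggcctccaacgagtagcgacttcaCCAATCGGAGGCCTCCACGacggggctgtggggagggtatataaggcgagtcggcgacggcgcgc
Creld2: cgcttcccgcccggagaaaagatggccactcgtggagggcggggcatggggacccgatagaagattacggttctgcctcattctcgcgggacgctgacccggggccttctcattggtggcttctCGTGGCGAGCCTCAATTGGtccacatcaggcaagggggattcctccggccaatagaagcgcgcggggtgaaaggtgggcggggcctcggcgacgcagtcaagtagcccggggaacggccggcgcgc
Hsp90b1: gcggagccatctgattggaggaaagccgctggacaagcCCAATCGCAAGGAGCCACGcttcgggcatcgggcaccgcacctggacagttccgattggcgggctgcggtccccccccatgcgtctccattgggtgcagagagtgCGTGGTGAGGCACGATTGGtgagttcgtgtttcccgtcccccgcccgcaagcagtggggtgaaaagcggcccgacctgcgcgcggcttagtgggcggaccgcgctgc
Expression of the 3 genes differed unequally: Creld2 had a difference of 0.72 ± 0.18 (adjusted p = 0.0973), with ex vivo pairs of -0.44, -1.52, -0.96 and -0.35, and the chaperone Hsp90b1 of 0.24 ± 0.12 (adjusted p = 0.389).

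The ex vivo animals were not alike in these lists. In vivo the mean stretch difference of the HIF list lay between -0.21 and 0.15, that of the unfolded protein response between -0.08 and 0.04, and that of glycolysis between -0.10 and 0.56. In ex vivo animals 1 to 4 the HIF list was at -0.05, -0.98, -0.80 and -0.38, the unfolded protein response at -0.07, -0.94, -0.52 and -0.23, and glycolysis at -0.01, -0.53, -0.46 and -0.13. Without ex vivo animal 1, 13 HIF genes and 11 genes of the unfolded protein response were called, against 407 of all 12393 genes. Without ex vivo animal 4 the numbers were 5 and 5, against 188 of all genes. Without ex vivo animal 2, 0 of either list was called by limma, and 11 and 9 passed at an unadjusted p under 0.05 with a positive difference. Over all genes 2 were then called, and 682 passed the unadjusted p with a positive difference. Without ex vivo animal 3 0 and 0 were called, with 12 and 11 past the unadjusted p, against 0 and 550 of all genes. Leaving out 1 in vivo animal left 0 or 1 called HIF gene and 0 called genes of the unfolded protein response by limma, with 13 or 14 and 14 to 16 past the unadjusted p. Over all genes 0 to 4 were then called, and 693 to 976 passed the unadjusted p with a positive difference. The median difference of the HIF list stayed positive in each left-out fit, between 0.37 and 0.63, as did that of the unfolded protein response, between 0.30 and 0.54.

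Skeletal muscle genes varied between pieces in both settings and are given beside these results, since muscle lies under this tissue. The mean of both muscle lists differed between the pieces of a pair by -0.31 to 3.96 in vivo and by -0.11, 0.02, 2.76 and 3.48 in ex vivo animals 1 to 4. With muscle content as a covariate 47 probes were called for the difference, 3 of them HIF genes of the list, and the list had a median difference of 0.46. Without the 4 pairs with the largest muscle difference between their pieces, 9 probes and 0 HIF genes were called by limma. The members past an unadjusted p under 0.05 were then 8 of 22 for HIF, 4 of 13 for glycolysis and 12 of 25 for the unfolded protein response, all with a positive difference, from fewer samples. Of all 12393 genes, 465 then passed with a positive and 1102 with a negative difference. The part of muscle in these results was not tested further. RNA quality was read as the 3′ minus 5′ difference of the Gapdh control probes. It was 0.11 to 0.27 in the samples of in vivo animals 1 to 3, 0.87 to 3.61 in those of in vivo animals 4 to 7 and 0.05 to 0.91 ex vivo. Set against the ex vivo animals, in vivo animals 1 to 3 alone gave a median HIF list difference of 0.55 and in vivo animals 4 to 7 alone 0.47, with 0 members called by limma in either and 11 and 13 past the unadjusted p with a positive difference. Of all 12393 genes, 564 and 536 passed the unadjusted p with a positive difference. The Gapdh measure changed with stretch by -0.22 ± 0.98 in vivo (SD, n = 7) and 0.19 ± 0.39 ex vivo (SD, n = 4), and an exact permutation test of the setting, two-sided, gave p = 0.485. The Actb probes gave an exact p of 0.800, and both were 0.800 after adjustment over the 2 tests.

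**Figure D3:**
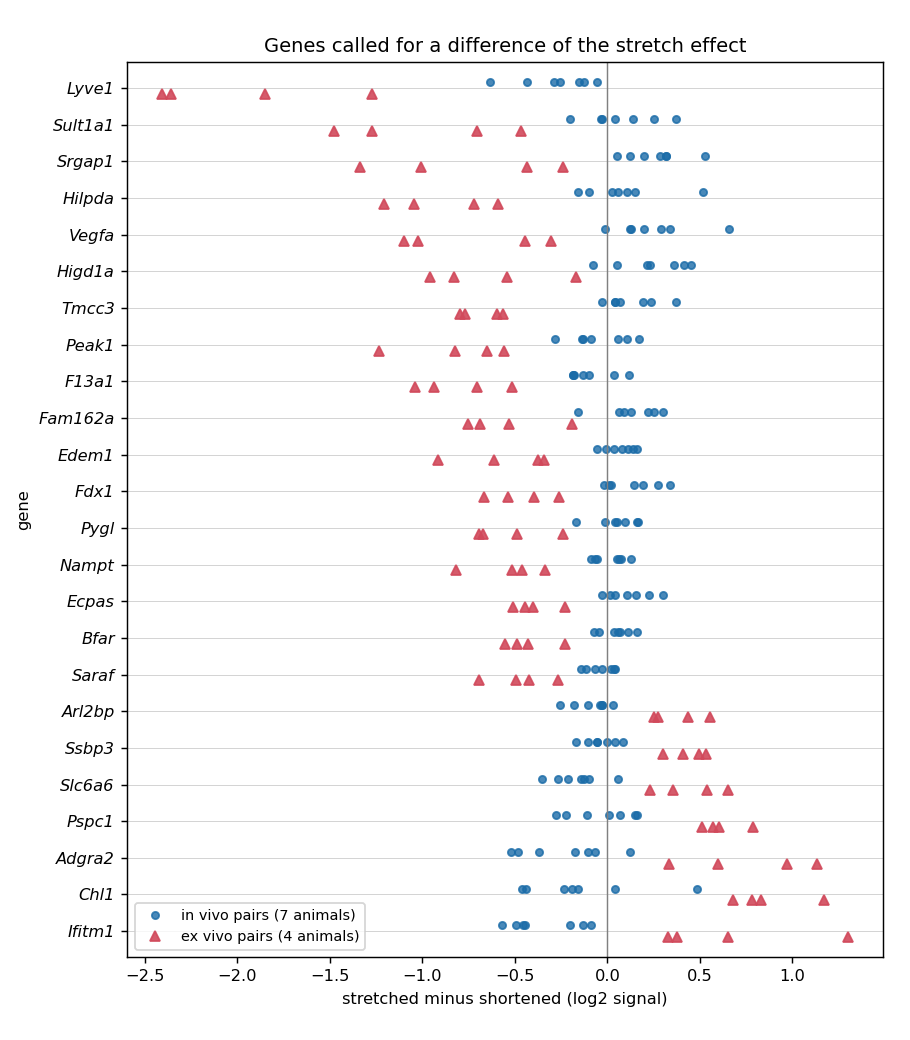
Stretched minus shortened tissue (log2 signal) in each animal for the 24 genes called for the difference, with in vivo pairs as circles above and ex vivo pairs as triangles below on each line. In none of the 24 genes do the circles overlap the triangles, and the mean of the triangles is farther from 0 in each.

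The other called genes covered several functions. Some with a positive difference work in metabolism or the mitochondria. Sult1a1, a sulfotransferase for phenols, had effects of 0.08 in vivo and -0.98 ex vivo (difference 1.06 ± 0.17, adjusted p = 0.0464). Pygl, the liver-type glycogen phosphorylase, had 0.05 and -0.52, and Nampt, which makes a precursor of NAD, had 0.02 and -0.53. Fdx1, the mitochondrial ferredoxin for steroid synthesis, gave a difference of 0.60 ± 0.10 (adjusted p = 0.0464). Others were Saraf, a regulator of store-operated calcium entry, with ex vivo pairs of -0.27, -0.42, -0.69 and -0.49, the signalling adaptor Peak1 (-0.56, -0.82, -1.24 and -0.65), the apoptosis regulator Bfar, the proteasome adaptor Ecpas, and Tmcc3. Insig2, which holds back sterol synthesis, was called by 1 probe with 0.81 (adjusted p = 0.0178). Dimmer probes did not pass for Nampt (0.39 ± 0.17, adjusted p = 0.308) or for Bfar (0.40 ± 0.11 and 0.38 ± 0.09, adjusted p = 0.125 and 0.0834).

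The 7 genes with a negative difference were higher in stretched tissue in 4 of 4 ex vivo animals, and their in vivo effects lay between -0.34 and -0.03. Ifitm1, an interferon-induced membrane protein, was lower in stretched tissue in 7 of 7 in vivo animals and higher in 4 of 4 ex vivo animals. Its signal in vivo was 8.40 to 8.87 in stretched tissue (median 8.59) and 8.89 to 9.08 in shortened tissue (median 8.995), and these groups did not overlap. Ex vivo it was 10.04, 9.998, 10.08 and 9.52 in stretched tissue, against 9.71, 8.70, 9.42 and 9.14 in shortened tissue, where 1 shortened sample stood above 1 stretched sample. The effects of -0.34 and 0.67 differed by -1.01 ± 0.17 (adjusted p = 0.0464). Chl1, a neural cell adhesion molecule, had effects of -0.14 and 0.87, with in vivo pairs from -0.46 up to 0.48 and ex vivo pairs of 0.78, 1.17, 0.83 and 0.68. Adgra2, an adhesion receptor needed for vessels of the brain, had effects of -0.23 and 0.76. Slc6a6, the taurine transporter, had -0.16 and 0.44, and Pspc1, a paraspeckle protein, -0.03 and 0.62. Arl2bp and Ssbp3 differed by -0.47 ± 0.08 each (adjusted p = 0.0495 each). Dimmer second probes did not show this for Arl2bp (-0.01 ± 0.24) and showed less for Pspc1 (-0.16 ± 0.14) and for Slc6a6 (-0.24 ± 0.18 and -0.15 ± 0.17). The pair differences of each of the 24 called genes did not overlap between the settings, which their choice by the same difference makes likely. Over all genes 1.15% lay above and 1.88% below without overlap.

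A gene was counted as opposite when each in vivo pair moved one way and each ex vivo pair the other. Such genes were few in one direction and more in the other. Higher in 7 of 7 in vivo pairs and lower in 4 of 4 ex vivo pairs were 9 genes (0.0726% of 12393), and the reverse held for 39 (0.315%). Srgap1, an inhibitor of cell migration pathways of the Slit receptor, had the smallest p of the first set (1.02 ± 0.18, adjusted p = 0.0495) but was dim, with a mean log2 signal of 4.42. Others in it were Clybl, a mitochondrial enzyme (1.19 ± 0.25, adjusted p = 0.0713), the replication factor Cdc45 (0.48 ± 0.11), the phospholipase Pla2g12a, Mettl6, Crtac1, Mgme1 and Pgk1, with adjusted p between 0.0713 and 0.109 apart from Srgap1. Dimmer probes gave 0.12 ± 0.09 for Mettl6, with effects of -0.03 in vivo and -0.16 ex vivo, and 0.20 ± 0.12 for Mgme1. Those of Pgk1 gave 0.45 ± 0.14 and 0.44 ± 0.15.

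In the reverse set stood Ifitm1 and Aldh1a3, the retinoic acid synthesising dehydrogenase. Aldh1a3 had in vivo pairs between -1.50 and -0.21 and ex vivo pairs of 0.08, 0.66, 0.70 and 0.34, a difference of -1.23 ± 0.22 (adjusted p = 0.0523), and its other probes gave -1.11 and -1.19. The growth factor Bmp4 had in vivo pairs between -0.64 and -0.04 and ex vivo pairs of 0.40, 0.89, 0.03 and 0.60 (-0.79 ± 0.15, adjusted p = 0.0592). The receptor tyrosine kinase Erbb2 (-0.57 ± 0.11), the fatty acid desaturase Fads1 (-0.55 ± 0.10), the microtubule linker Clip1 (-0.46 ± 0.09), the sarcospan gene Sspn (-0.39 ± 0.08) and Tmcc2 (-0.56 ± 0.10) had adjusted p between 0.0533 and 0.0677. A second probe of Tmcc2 was called at -0.69 (adjusted p = 0.0495). Dimmer probes gave -0.53 ± 0.23 and -0.20 ± 0.13 for Clip1 and -0.31 ± 0.20 for Sspn (adjusted p between 0.306 and 0.492).

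**Figure D4:**
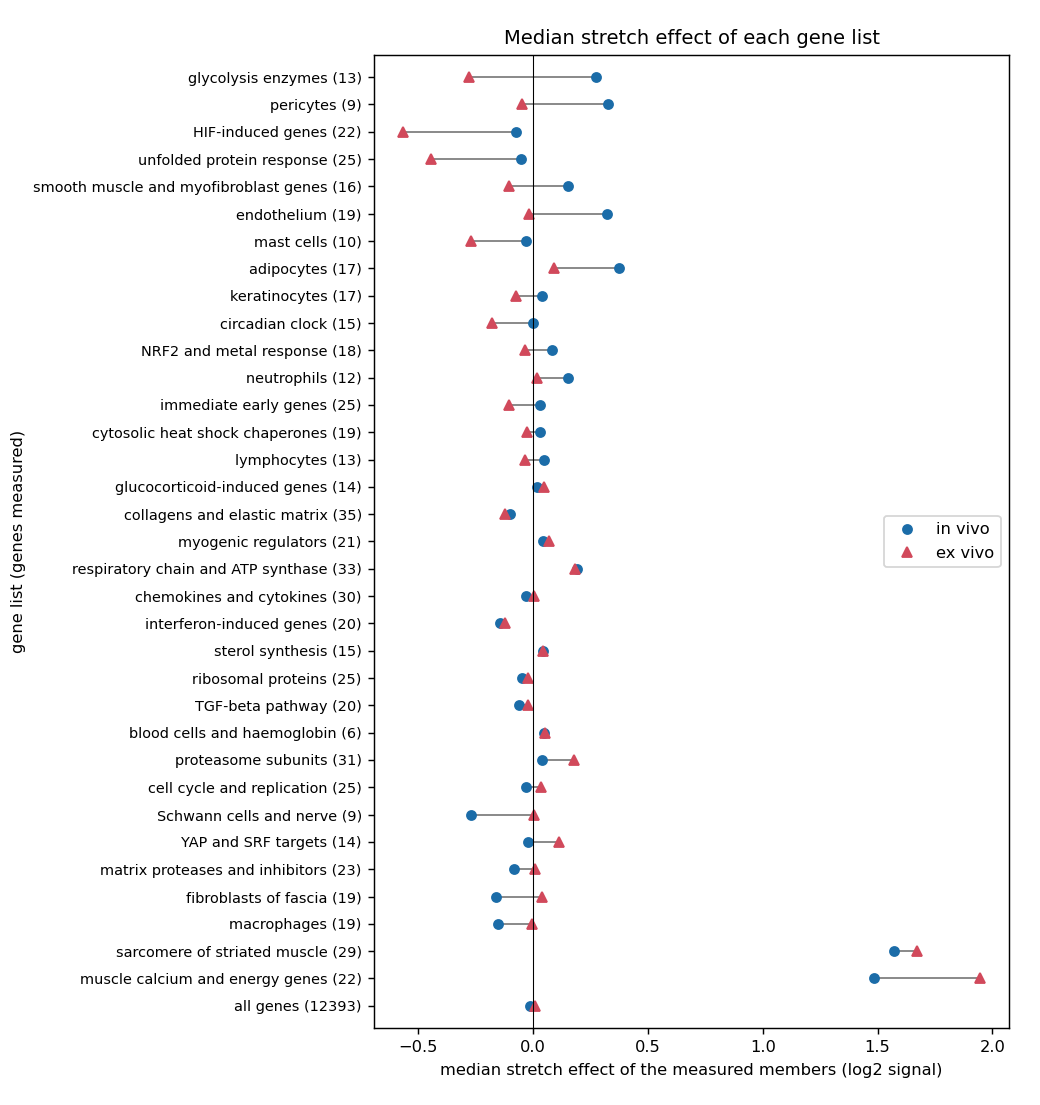
Median stretch effect (log2 signal) over the measured members of each of 34 gene lists and over all genes, in vivo (circles) and ex vivo (triangles), ordered by the difference. The HIF, glycolysis and unfolded protein response lists have ex vivo medians of -0.56, -0.28 and -0.44 and lie to the left of their in vivo medians, and the muscle lists are high in both settings.

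Among the other lists, DNA replication and the proteasome leaned the other way. Of 25 cell cycle and replication genes 9 had a positive difference, and 7 passed at an unadjusted p under 0.05 with a negative and 0 with a positive difference, against 9.68% and 6.98% of all genes. These were led by the helicase subunits Mcm6 (-0.57 ± 0.13, adjusted p = 0.0834), Mcm5 (-0.62 ± 0.15, adjusted p = 0.0899) and Mcm2 (-0.37 ± 0.09, adjusted p = 0.0937), with Mcm2 at 0.12, 0.49, 0.46 and 0.32 in the ex vivo pairs. Cyclin D1, Ccnd1, gave -0.66 ± 0.18 (adjusted p = 0.124). Of 31 proteasome subunits 9 had a positive difference and 11 passed without adjustment in the negative and 0 in the positive direction, against the same shares, with medians of 0.04 in vivo and 0.18 ex vivo. No member of either list passed by limma after adjustment. Some cell marker lists leaned the same way as the HIF list. The median difference was 0.52 for pericytes (7 of 9 positive) and 0.37 for smooth muscle and myofibroblasts (13 of 16). It was 0.34 for endothelium (15 of 19) and 0.24 for adipocytes (14 of 17). At an unadjusted p under 0.05, 2, 0, 1 and 1 of these passed upward and 0, 1, 0 and 0 downward, against 6.98% and 9.68% of all genes. Mast cells had 0.25 (8 of 10, with 4 upward and 1 downward), keratinocytes 0.18 (13 of 17) and neutrophils 0.13 (9 of 12). The circadian clock list had 0.16 (12 of 15, with 5 upward and 0 downward). Positive differences were fewer for Schwann cells (2 of 9), macrophages (5 of 19) and fascia fibroblasts (6 of 19). Blood cells had 2 of 6, and the muscle lists 7 of 29 and 5 of 22. The part of cell content in these values was not tested.

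The differences between the settings were evenly spread around 0 for matrix genes and mostly negative for targets of stretch-sensitive factors. The collagen and elastic matrix list had 17 of 35 members with a positive difference and a median difference of 0.00, with medians of -0.10 in vivo and -0.12 ex vivo. In stretched tissue 26 of the 35 were lower in vivo and 27 ex vivo. Col1a1, the main collagen of the tissue, gave 0.22 ± 0.12 (adjusted p = 0.406). Within the list Loxl1, which joins elastin fibres, had effects of -0.18 in vivo and 0.71 ex vivo (difference -0.89 ± 0.19, adjusted p = 0.0749), and periostin, Postn, had 0.03 and -0.66 (0.69 ± 0.17, adjusted p = 0.0990). Targets of the stretch-sensitive factors YAP and SRF had 4 of 14 positive differences, with 2 past an unadjusted p of 0.05 upward and 4 downward, against 6.98% and 9.68% of all genes, and a median difference of -0.14. Their median stretch effects were -0.02 in vivo and 0.11 ex vivo. In stretched tissue 6 of the 14 were higher in vivo and 10 ex vivo. Ankrd1, a YAP target also abundant in muscle, had in vivo pairs of -0.43 to 0.05, against ex vivo pairs of 0.52, 0.25, 1.84 and 4.95 (-2.03 ± 0.66, adjusted p = 0.172). Of the ex vivo pairs, animals 3 and 4 also had the largest muscle change. In vivo animals 5 and 6, with muscle changes of 3.96 and 2.11, had Ankrd1 differences of -0.23 and -0.08. The part of muscle in Ankrd1 was not tested. Ccn1, of the same list, went the other way, with a difference of 0.72 (exact permutation of the setting, unadjusted p = 0.0273). By limma after adjustment, 0 members of this list were called. Tgfb1 gave -0.21 ± 0.15 (adjusted p = 0.562) and the myofibroblast actin Acta2 0.50 ± 0.54 (adjusted p = 0.716).

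Early response and inflammatory genes were mixed. At an unadjusted p under 0.05, 3 of 25 immediate early genes passed upward and 2 downward, against 6.98% and 9.68% of all genes. Of 30 chemokine and cytokine genes 4 passed upward and 5 downward, against the same shares. By exact permutation of the setting, Ptges differed by 0.61 (unadjusted p = 0.00303), Klf2 by -0.52 (p = 0.00606) and Atf3 by 0.67 (p = 0.0364). These 3 genes were named for the smallest limma p of their lists, so the permutation is not separate support. The smallest p that its 330 assignments allow is 0.00303. By limma after adjustment, 0 members of either list were called. Fos gave 0.31 ± 0.32, Egr1 0.04 ± 0.25, Il6 0.26 ± 0.22 and Cxcl1 0.41 ± 0.30 (adjusted p between 0.542 and 0.958). Hmox1 gave 0.16 ± 0.15 (adjusted p = 0.683) and the metallothionein Mt2 0.11 ± 0.08 (adjusted p = 0.552). Cxcl9, a chemokine for T cells, was higher in stretched tissue in 6 of 7 in vivo animals (-0.04 to 1.64) and lower in 4 of 4 ex vivo animals (-0.33, -0.55, -0.10 and -0.08), a difference of 1.24 ± 0.31 with adjusted p = 0.0975. Among fibroblast markers, 6 of 19 had a positive difference and 6 passed without adjustment in the negative and 1 in the positive direction, against 9.68% and 6.98% of all genes, among the 6 Cd34 (-0.73 ± 0.15, adjusted p = 0.0677) and Pi16 (-0.98 ± 0.26, adjusted p = 0.107). The mast cell protease Cpa3 had in vivo pairs of -0.38 to 0.22 and ex vivo pairs of -0.36, -0.75, -2.20 and -0.69 (0.96 ± 0.27, adjusted p = 0.124).

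The mean of both effects was also tested, each setting with the same weight, and a large effect in a single setting can pass this test. Lyve1, called above for a difference, passed it too (mean effect -1.12, limma adjusted p = 0.000509). So did 8 HIF genes and 8 genes of the unfolded protein response, all lower in stretched tissue. By limma 91 genes (0.734%) were called higher and 246 (1.98%) lower in stretched tissue. Of these 337 genes 311 had the same sign in both settings, 62 in 11 of 11 pairs, and 316 had the larger effect ex vivo. Over all genes 36 (0.29%) were higher and 69 (0.557%) lower in 11 of 11 pairs. Myh4, the fast myosin heavy chain, had a mean effect of 3.41 ± 0.73 (adjusted p = 0.0348), was higher in 11 of 11 pairs, and its difference of -1.31 ± 1.46 did not pass (adjusted p = 0.722). The limb and skin transcription factor Tbx3 (0.53 ± 0.12, adjusted p = 0.0389) and the prostaglandin F receptor Ptgfr (0.47 ± 0.11, adjusted p = 0.0469) were higher in 11 of 11 pairs. Ltbp2, a protein of elastic fibres, was higher in 10 of 11 pairs (0.42 ± 0.07, adjusted p = 0.0125).

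Lower in both were the noncoding RNA Meg3 (-0.61 ± 0.09, adjusted p = 0.0125) and Pdzph1 (-0.61 ± 0.10, adjusted p = 0.0140), each in 11 of 11 pairs. The potassium channels Kcnk5 (-0.71 ± 0.10, adjusted p = 0.0113) and Kcnk1 (-0.67 ± 0.14, adjusted p = 0.0309) and the chloride channel Clcn2 (-0.58 ± 0.10, adjusted p = 0.0168) were lower in 4 of 4 ex vivo pairs and in 5, 6 and 5 of 7 in vivo pairs. Slc4a10, a bicarbonate transporter, was called for its mean effect of -0.78 ± 0.19 (adjusted p = 0.0487), but the in vivo effect was -1.44 and the ex vivo effect -0.13. The calls of the mean effect changed with muscle content. With it as a covariate 4 probes were called in place of 543. Without the 4 pairs with the largest muscle difference between their pieces, 3 were called.

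**Figure D5:**
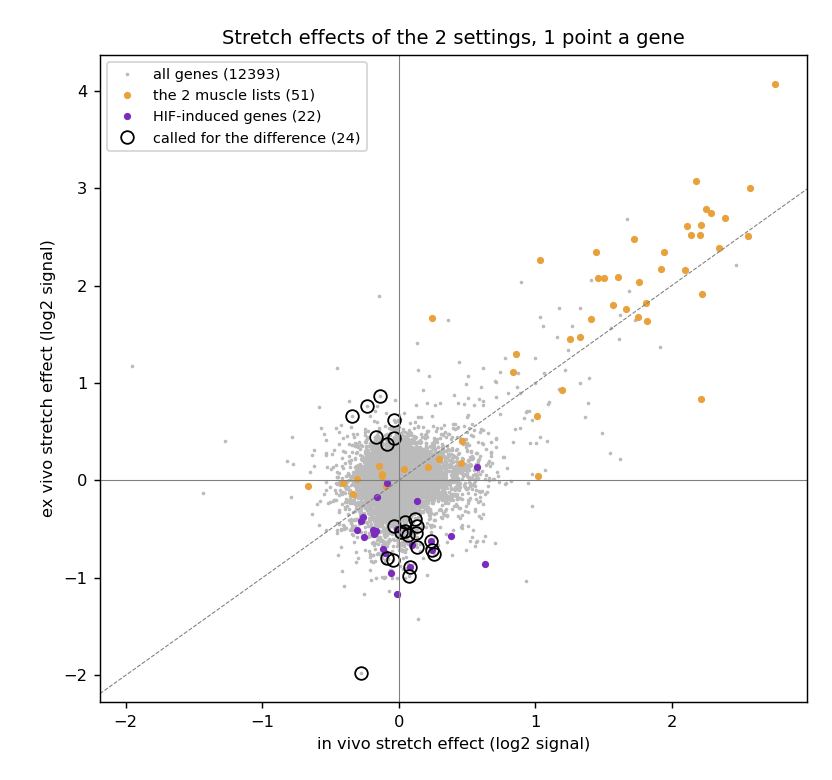
In vivo stretch effect (horizontal) against ex vivo stretch effect (vertical), in log2 signal, 1 point for each of 12393 genes, with the 51 genes of the muscle lists, the 22 HIF genes and the 24 genes called for the difference marked; the dashed line marks equal effects. Muscle genes lie along the dashed line at high values, and the called genes lie near 0 in vivo and away from 0 ex vivo.

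Across genes, the effects of the 2 settings had a Pearson correlation of 0.43 and a Spearman correlation of 0.12 over 12393 genes, and 53.0% of genes had the same sign. Genes are not independent replicates, and these values describe the 2 sets of animals only. Within the 51 genes of the muscle lists the Pearson correlation was 0.89 and 92.2% had the same sign, and without them it was 0.25 over 12342 genes. Acta1, skeletal alpha-actin, had effects of 2.22 in vivo and 1.91 ex vivo, a difference of 0.31 ± 1.34 (adjusted p = 0.940). Respiratory chain genes were alike in the settings too, with medians of 0.19 in vivo and 0.18 ex vivo and 16 of 33 positive differences.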

How the data were processed

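Expression was measured on 1-colour arrays in 22 samples, 7 pairs in vivo and 4 ex vivo. The log2 values were deposited by the authors and made with RMA in the affy package, per the submitters' processing notes; versions are not given in the sources used here. Sorted values differed by 0.03 on average within the in vivo samples, 0.02 within the ex vivo samples and 0.40 between settings, so no level was compared across settings. Values were used as deposited, without 64 control probes. A gene was read from the brightest of its probes with 1 symbol (20380 probes had 1 symbol, 691 several and 1555 none), with symbols updated by gene ID. limma 3.58.1 in R 4.3.3 was fitted on 22 samples with the animal as a block, a stretch effect per setting and a variance trend on the mean. P-values were adjusted by Benjamini-Hochberg over 22626 probes with a threshold of 0.05, and the fit had 9 residual degrees of freedom. The script was tested on simulated data. Single measures were compared by exact permutation of the setting over 11 pairs.

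The pairing comes from the series' design, in which both pieces came from 1 animal; the correlation of the deviations of the pieces of a pair was 0.16 to 0.87 in vivo and 0.07 to 0.32 ex vivo. No 2 samples held identical values. Where nothing states separate experiments, p-values measure the spread between these animals only. The 34 gene lists (651 of 724 written genes measured) and the comparison itself were chosen with earlier results of these data known. Named genes were up to 10 per direction among the called genes for the difference and for the mean effect, 8 opposite genes per direction, the 3 genes of smallest p of each list, and 17 fixed genes; the other called genes and members are named to complete their group and were chosen after their values were seen. Promoters are RefSeq's of GRCm38.p6. Alternatives covered normalization, filters, variance models, weights, the block, muscle content, RNA quality, left-out animals and, chosen after seeing the data, fitting the settings apart.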

Additional observations from a re-analysis of the deposited data

Results flagged for a closer look

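Of 286 sets of pair differences examined, for 140 genes and 3 lists, 9 held an animal far from the others of its setting. This is a smaller share than the about 1 in 20 that chance gives, so these animals are listed as values only. In vivo, Fos was -0.81 in animal 5 (others 0.10 to 0.71), Meg3 was -0.60 in animal 3 (others -0.24 to -0.01), and Sdf2l1 was -0.54 in animal 3 (others -0.17 to 0.06). Lox was 0.29 in in vivo animal 4 (others -0.40 to -0.16). In vivo animal 7 stood above the others for Sel1l at 0.54 (others -0.39 to -0.08) and Tgfb1 at 0.60 (others -0.26 to -0.04). Ex vivo, Angptl4 was 0.61 in animal 3 (others -0.05 to 0.01). Ex vivo animal 4 stood above the others for Fos at 1.07 (others -0.56 to -0.47) and for Myod1, the muscle regulator, at 2.88 (others 0.06 to 0.37), and it also had the largest muscle difference of the ex vivo pairs, 3.48; the part of muscle in these values was not tested.

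Here 38 genes are listed for a stretch effect that differed between the settings, 24 by the limma test and 14 because each in vivo pair moved one way and each ex vivo pair the other while the test was not passed. Over all genes 9 and 39 had such opposite pairs, Ldha among the 9; of these, the called ones and the 8 of smallest p in each direction are listed. In the 24 tested genes the difference, in vivo minus ex vivo, was 1.70 for Lyve1, 1.06 for Sult1a1, 1.02 for Srgap1, 0.98 for Hilpda, 0.96 for Vegfa, 0.86 for Higd1a, 0.81 for Tmcc3, 0.77 for Peak1, 0.71 for F13a1, 0.67 for Fam162a, 0.63 for Edem1 and 0.60 for Fdx1. It was 0.57 for Pygl, 0.55 for Nampt, 0.51 for Ecpas, 0.47 for Bfar and 0.43 for Saraf, and negative for Ifitm1 (-1.01), Chl1 (-1.0), Adgra2 (-0.99), Pspc1 (-0.65), Slc6a6 (-0.61), Arl2bp (-0.47) and Ssbp3 (-0.47). In the 14 genes of opposite direction whose test did not pass it was 1.19 for Clybl, 0.49 for Pgk1, 0.48 for Cdc45, 0.46 for Crtac1, 0.42 for Pla2g12a, 0.38 for Mettl6 and 0.38 for Mgme1, and -1.23 for Aldh1a3, -0.79 for Bmp4, -0.57 for Erbb2, -0.56 for Tmcc2, -0.55 for Fads1, -0.46 for Clip1 and -0.39 for Sspn.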

How the results depend on the processing

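The direction of the difference was the same for each called gene in each alternative that tested it (27 for 22 genes, and 25 for Chl1 and Srgap1, which the filters on dim probes removed), but the number of calls was not stable, and the cause was not tested. Pair differences of the called genes did not overlap between the settings. Leaving out animals or changing the filter, threshold or variance model could therefore not reverse their direction. Against 40 probes for the difference and 543 for the mean effect, the counts were 5 for the difference after quantile normalization of all samples, 4 without the mean-variance trend, 74 and 824 with a mean signal of at least 6, 128 and 858 among probes brighter than the median, 4 and 212 with weights by setting, 330 and 1001 with weights per sample, and 344 and 1584 at an adjusted p of 0.10. Without the replicate block that pairs the pieces of an animal, 3 and 16 probes were called. Muscle content as a covariate left 4 for the mean effect, and leaving out the 4 pairs with the largest muscle difference between their pieces left 9 and 3. In vivo animals 1 to 3 gave 1 and 0, and in vivo animals 4 to 7 gave 0 and 2 (fewer samples). Leaving out 1 animal gave 0 to 663 probes for the difference, 37 to 1228 for the mean effect and a correlation across genes of 0.22 to 0.57. That correlation was 0.25 without the muscle lists and 0.13 for effects divided by their errors. The ex vivo effect had 661 called probes in the joint fit and 0 with the settings fitted apart. Lyve1 stayed between 1.55 and 2.11 and was called in 23 of 27 alternatives.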

Other observations

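Among the 10 genes of largest difference in size, only Lyve1 passed the test, and the following were chosen from the others after their values were seen. Zic1, a transcription factor of dorsal and connective tissue development, had the largest difference of all genes, -3.13 (adjusted p = 0.0533). It was lower in stretched tissue in 7 of 7 in vivo animals, between -3.12 and -0.83, and the ex vivo pairs were -0.34, 3.02, 0.68 and 1.33. Cidea, a lipid droplet protein of brown and beige fat, had a difference of 1.97 (adjusted p = 0.202), with in vivo pairs between 0.04 and 2.94 and ex vivo pairs of 0.04, -3.28, -0.08 and -0.81, so that ex vivo animal 2 and in vivo animals 3 and 5 set it. Krtdap, a protein of differentiating keratinocytes and a member of that marker list, gave -1.68 (adjusted p = 0.0788), and Cited1, a transcriptional co-regulator, 1.56 (adjusted p = 0.0716).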
